A study of Xenopus laevis with 72 samples.

Results

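The first 1.5 h of unperturbed development after the wash was examined in control embryos of the frog Xenopus laevis, as the change of each target gene from 0 h to 1.5 h. The samples were chosen by their labels alone: the 6 control samples at 0 h and the 6 control samples at 1.5 h, 12 of the 72 samples of the series, paired by clutch letter from G to L. High-throughput quantitative PCR (HT-qPCR) had given the transcript levels of 23 target genes and of gapdh (gene ID 380259), which served as reference. All embryos were wild type, and each sample was a pool of 5 to 10 whole embryos. All samples of a clutch came from the eggs of 1 female and 1 fertilization. The control embryos were kept without RA or DEAB for the 2 h from late blastula (stage 9.5) to early gastrula (stage 10.25), were washed like the others and were collected at 0 h or 1.5 h. The 2 treated series used for comparison came from the same 6 clutches and received, over the same 2 h, 10 nM retinoic acid (RA) or 50 uM DEAB, an inhibitor of the aldehyde dehydrogenases that make RA. The panel holds no marker of a single tissue or stage, so that the stage named in the labels was not checked against the data.

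RA is a diffusible signal made from vitamin A. Retinol is first oxidized to retinaldehyde by dehydrogenases, and retinaldehyde is then oxidized to RA by aldehyde dehydrogenases of the ALDH1A family. Reductases such as DHRS3 return retinaldehyde to retinol, CYP26 enzymes hydroxylate RA and so remove it, and CRABP2 carries RA to its nuclear receptors, which act on target genes that include the anterior hox genes. In the frog embryo RA signalling begins around the onset of gastrulation, and the enzymes that make and remove RA are expressed in separate domains. X. laevis is an allotetraploid whose duplicated genes, called homoeologs, are marked L and S for the long and the short subgenome.

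Levels are given as log2 relative expression, in which gapdh is the reference, 0 is the median of the gene over the 72 samples and a higher value is more transcript. They compare a gene with itself, and not 1 gene with another. A change of 1 on this scale is a doubling. In whole embryos, a change in the share of cells that express a gene and a change in RNA per cell cannot be told apart. In the 12 samples the threshold cycles (Ct) ran from 11.41 to 26.00, and 6 values were missing, each of them for hoxd3.L. How many template molecules a Ct stands for is not known, and the spread between clutches is therefore the only measure of error. The standard errors, intervals and p-values of limma use the spread of each gene over all 72 samples in 12 groups. They do not measure the spread of the 6 control changes alone, which is given as a range or standard deviation and can be larger or smaller. A change had a standard error (SE) of 0.42 at the median.

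Between 0 and 1.5 h, 12 of the 23 target genes (52.2%) passed limma's test at an adjusted p of 0.05, of which 11 (47.8%) rose and 1 (4.35%) fell. The median change over all 23 genes was 1.09. Of the 5 genes of RA synthesis 3 rose, with a median change of 0.92 for the list. Among the 7 genes of reduction and degradation 3 rose and 1 fell, and the median was 0.96. In the list of binding and transport 2 of 4 genes rose, and the median was 1.36. The 7 hox genes held 3 that rose, and their median was 1.32. The 4 lists thus had medians on both sides of that of the whole panel, and each list also held genes that did not pass. These counts and medians hold with gapdh as reference. With no reference gene 0 genes of synthesis rose, 2 of reduction and degradation, 2 of binding and transport and 1 hox gene. Against the panel mean these counts were 0, 1, 2 and 1, and the median of the synthesis list was -0.18. With the gapdh reference 11 of the 22 genes measured in every clutch moved 1 way in all 6 clutches. The samples of both times did not overlap for 4 of these 22 genes (18.2%).

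**Figure D1:**
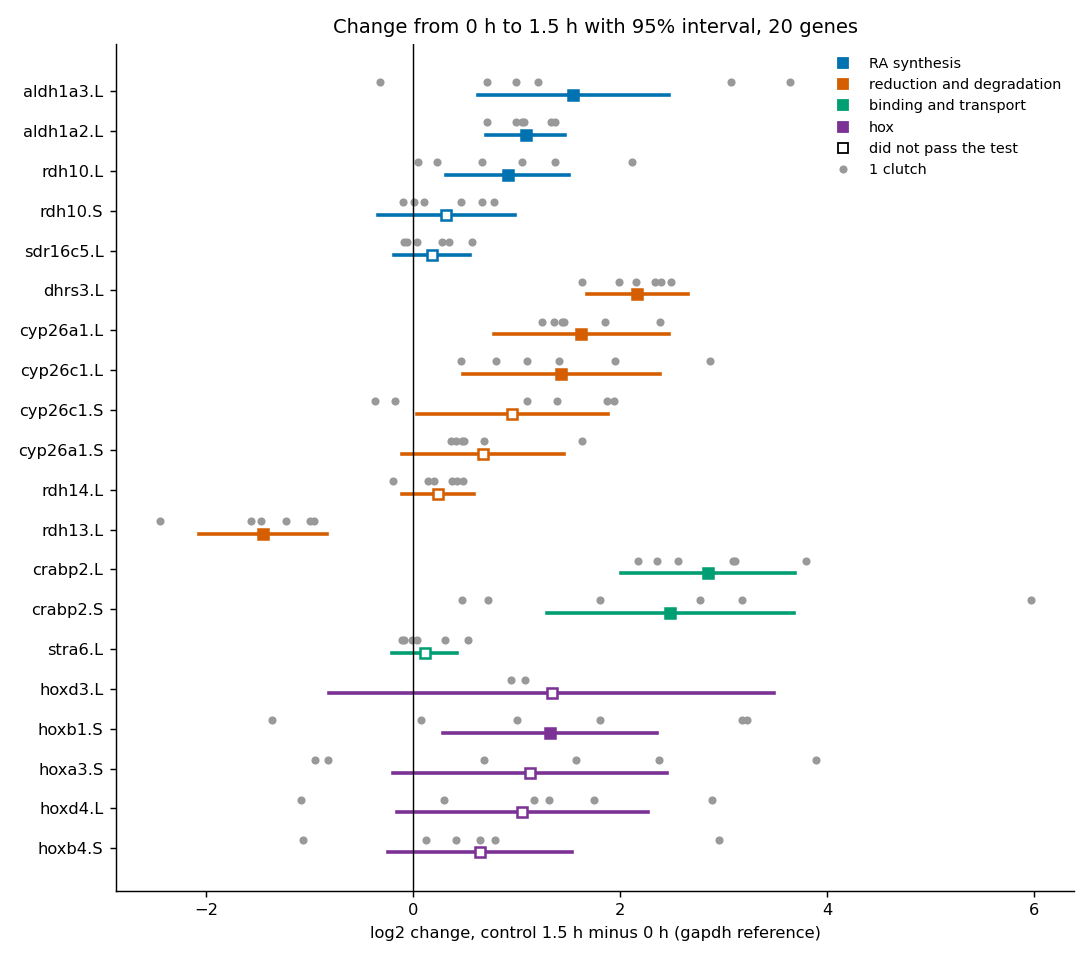
Change from 0 h to 1.5 h in control embryos (x axis, log2 scale with gapdh as reference) for the 20 genes reported singly, grouped by list. Squares are limma estimates with their 95% intervals, filled where the adjusted p was under 0.05, and grey points are single clutches. Clutches spread widely for crabp2.S, from 0.47 to 5.97, and for hoxa3.S and hoxb1.S, while those of dhrs3.L and aldh1a2.L lie close together. The estimates of 10 of these genes turn negative with the panel mean as reference, and those of 4 with no reference gene.

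Among the binding proteins, both homoeologs of crabp2 rose. The level of crabp2.L (gene ID 378522) at 0 h was -5.44 at the lowest, -4.33 at the median and -3.17 at the highest. By 1.5 h it ran from -2.10 to -0.61 with a median of -1.54. Every 1.5 h sample was above every 0 h sample. The change was 2.85 (SE 0.42, 95% interval 2.01 to 3.69, adjusted p = 8.26e-08 by limma), a 7.20-fold increase, and the 6 clutches gave 2.17 to 3.80. No other gene reported singly here changed by more.

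Its homoeolog crabp2.S (gene ID 108700362) stood between -7.22 and -2.05 at 0 h (median -5.82) and between -4.23 and -1.25 at 1.5 h (median -2.63), so that both times overlapped. At 0 h clutches I (-2.89) and K (-2.05) were far above the other 4, which lay between -7.22 and -5.61. The same clutches gave the smallest changes, 0.47 in I and 0.72 in K, against 3.18 in G, 5.97 in H, 1.81 in J and 2.77 in L. The change was 2.49 (SE 0.60, adjusted p = 4.12e-04), with a standard deviation (SD) of 2.02 over the clutches against 0.60 for crabp2.L. Without clutch H it was 1.79 (adjusted p = 0.00784). The gene stra6.L (gene ID 108711302), whose product in mammals takes up retinol into cells, changed by 0.11 (SE 0.16, adjusted p = 0.475) and was higher in 3 of 6 clutches.

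Of the genes whose products remove retinaldehyde or RA, dhrs3.L had the most even change among those that passed. This retinaldehyde reductase gene (gene ID 444269) ran from -4.00 to -2.69 at 0 h (median -3.32) and from -1.92 to -0.20 at 1.5 h (median -1.15). The times did not overlap. The change was 2.17 (SE 0.24, 95% interval 1.68 to 2.66, adjusted p = 5.15e-11), a 4.49-fold increase, and the clutches lay between 1.63 and 2.49 (SD 0.32, n = 6). The order of the clutches was also largely kept, with H highest at both times.

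The level of cyp26a1.L (gene ID 496314), which encodes an RA hydroxylase, was between -3.39 and -1.87 at 0 h (median -2.67) and between -1.52 and -0.41 at 1.5 h (median -1.14). The times did not overlap here either. The change was 1.63 (SE 0.42, adjusted p = 8.69e-04, n = 6 clutches), with 1.25 to 2.39 in single clutches. The level of cyp26a1.S (gene ID 398094) was -2.44 to -0.75 at 0 h (median -1.37) and -1.64 to -0.38 at 1.5 h (median -0.77), which overlapped. It was higher in 6 of 6 clutches, by 0.37 to 1.63, but its mean change of 0.68 (SE 0.39, adjusted p = 0.134) did not pass. In the fit to only the 12 samples compared it passed with an adjusted p of 0.0301. With no reference gene the change of cyp26a1.S was 0.20 (adjusted p = 0.737 by limma). In clutches H and J its rises (0.69 and 1.63) were smaller than those of the gapdh Ct (0.94 and 1.79 cycles). Without the reference these clutches were thus lower at 1.5 h.

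The cyp26c1 homoeologs, which encode a second RA hydroxylase and lie next to the cyp26a1 homoeologs of the same subgenome in the RefSeq annotation, showed a like picture with more spread. For cyp26c1.L (gene ID 108696124) the level was -4.26 to -3.44 at 0 h (median -4.01) and -3.51 to -1.39 at 1.5 h (median -2.52). Only clutch L at 1.5 h (-3.51) fell within the range of the 0 h samples. The change was 1.43 (SE 0.48, adjusted p = 0.00801), from 0.46 in clutch L to 2.87 in clutch H. The change of cyp26c1.S (gene ID 735026) was 0.96 (SE 0.46, adjusted p = 0.0728) and was negative in clutches I (-0.37) and L (-0.17). It passed without clutch I (1.23, adjusted p = 0.0382) and in the fit to the 24 control samples (adjusted p = 0.0344).

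The 1 gene that fell was rdh13.L (gene ID 444106), a gene of the retinol dehydrogenase family that is listed here with the reductases. Its level was 0.51 to 2.81 at 0 h (median 1.36) and -0.97 to 1.85 at 1.5 h (median -0.18). Clutch G was the highest at both times, at 2.81 and 1.85. In the other 5 clutches every 1.5 h sample (-0.97 to -0.03) was below every 0 h sample. The level fell by 1.45 (SE 0.31, adjusted p = 7.89e-05), and it fell in 6 of 6 clutches, by 0.96 in clutch G to 2.45 in clutch J. A further reductase gene, rdh14.L (gene ID 108717195), changed by 0.24 (SE 0.17, adjusted p = 0.222).

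**Figure D2:**
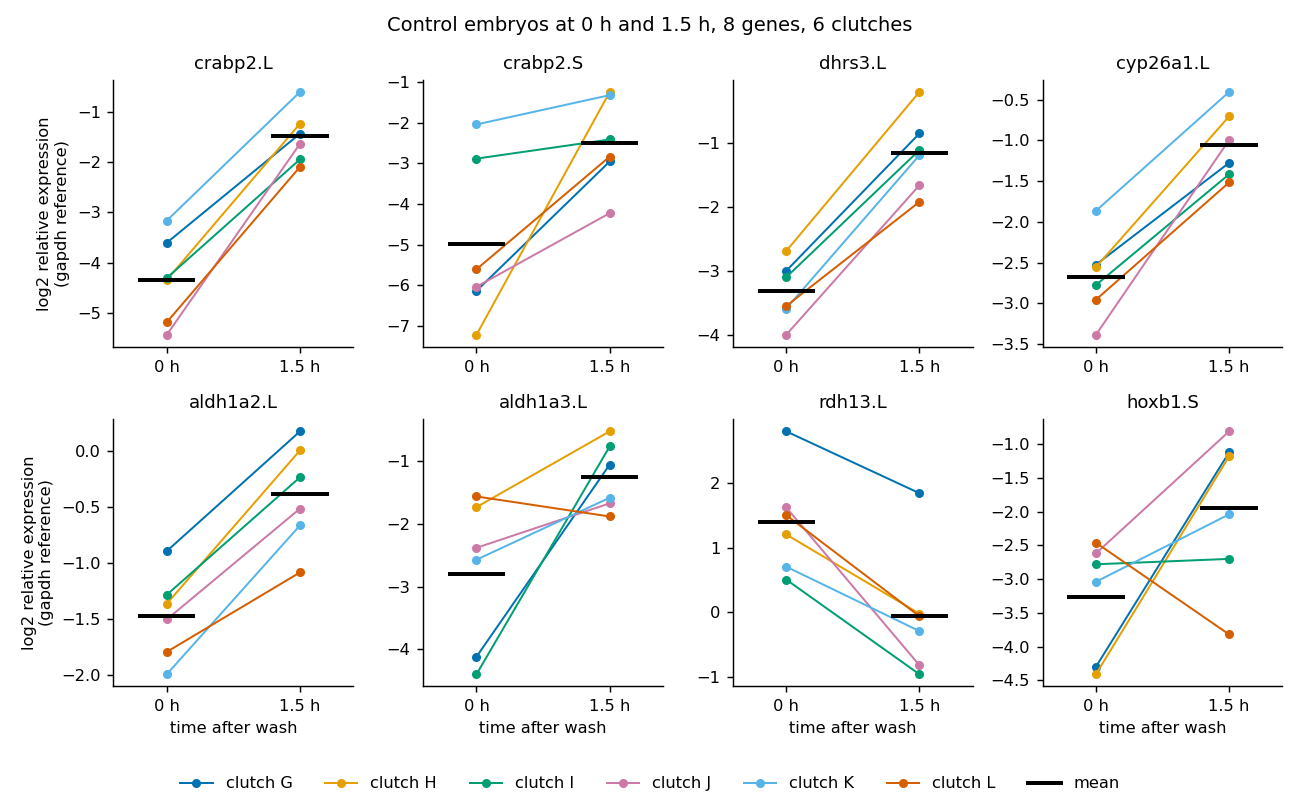
Log2 relative expression (y axis, gapdh reference) of 8 genes in control embryos at 0 h and 1.5 h, with 1 line per clutch and black bars for the mean of 6. All 6 lines of dhrs3.L, crabp2.L, crabp2.S, cyp26a1.L and aldh1a2.L run up and all of rdh13.L run down, while clutch L runs down for aldh1a3.L and hoxb1.S. With the panel mean as reference the change of aldh1a2.L was -0.01, and those of the other 7 genes kept their sign.

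Of the genes that make RA, aldh1a2.L (gene ID 399389), which encodes an RA-producing dehydrogenase, gave the smallest spread with gapdh as reference. It ran from -1.99 to -0.89 at 0 h (median -1.43) and from -1.08 to 0.18 at 1.5 h (median -0.37). The times overlapped only between clutch L at 1.5 h (-1.08) and clutch G at 0 h (-0.89). The change was 1.09 (SE 0.19, adjusted p = 2.05e-06), a 2.12-fold increase, and the 6 clutches gave 0.71 to 1.37 (SD 0.24). For sdr16c5.L the SD was 0.26. In clutch J the rise of 0.99 was smaller than that of the gapdh Ct (1.79 cycles). With no reference gene this clutch was thus lower at 1.5 h.

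A related gene, aldh1a3.L (gene ID 733178), varied more. Its level was -4.40 to -1.56 at 0 h (median -2.48) and -1.88 to -0.52 at 1.5 h (median -1.32), with overlap. Clutches G (-4.12) and I (-4.40) were the lowest at 0 h and rose by 3.07 and 3.64, while clutch H changed by 1.21, J by 0.71, K by 0.99 and L by -0.32. The mean change was 1.55 (SE 0.46, adjusted p = 0.00368), and it was 1.13 without clutch I (adjusted p = 0.0442).

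The estimates for the retinol oxidation genes were smaller than those of aldh1a2.L and aldh1a3.L, a difference between genes that was not tested. The level of rdh10.L (gene ID 446860), whose product oxidizes retinol, changed by 0.92 (SE 0.30, adjusted p = 0.00714), with 0.05 to 2.12 in the clutches. The change of rdh10.S (gene ID 431995) was 0.32 (SE 0.33, adjusted p = 0.349) and that of sdr16c5.L (gene ID 444148), another retinol dehydrogenase gene, was 0.18 (SE 0.18, adjusted p = 0.349). The 95% intervals of these last changes were -0.34 to 0.98 and -0.18 to 0.55, so that a doubling lay outside both.

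As a list, the hox genes, which pattern the head-to-tail axis, differed most between clutches. The SD of the change over clutches had a median of 1.31 in the hox list against 0.37 in synthesis, 0.48 in reduction and degradation, 0.56 in binding and transport and 0.60 over all genes. The hox value counts hoxd3.L, whose SD of 0.09 comes from 2 clutches only. Of the hox genes reported singly, hoxb1.S (gene ID 108702519), an early hindbrain gene, was the 1 that passed. It ran from -4.41 to -2.46 at 0 h (median -2.91) and from -3.82 to -0.81 at 1.5 h (median -1.61). Its change was 1.32 (SE 0.52, adjusted p = 0.0256), with 3.18 in clutch G, 3.23 in H, 0.08 in I, 1.81 in J, 1.0 in K and -1.36 in L. The call was lost without clutch G (0.95), without H (0.94) and without J (1.23, adjusted p = 0.0727), and in the fit to only the 12 samples compared (adjusted p = 0.107).

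The level of hoxb4.S (gene ID 734796), a more posterior gene that the study also followed, was -4.00 to -0.79 at 0 h (median -2.17) and -3.17 to -1.04 at 1.5 h (median -1.74). Its change was 0.65 (SE 0.44, adjusted p = 0.205), from -1.06 in clutch J to 2.96 in clutch H, and it was 0.18 without H and 0.99 without J. For hoxa3.S (gene ID 379985) the change was 1.13 (SE 0.66, adjusted p = 0.135), with 4 clutches higher and with J (-0.82) and L (-0.95) lower. For hoxd4.L (gene ID 100380950) it was 1.06 (SE 0.60, adjusted p = 0.134), higher in every clutch but L (-1.08). Without clutch H the changes were 0.57 for hoxa3.S and 0.69 for hoxd4.L. The 95% intervals of the 3 changes reached from -0.24 to 1.53, from -0.20 to 2.45 and from -0.15 to 2.27, so that neither no change nor a doubling lay outside them.

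The neighbour of hoxd4.L in the annotation, hoxd3.L (gene ID 100036911), had values at both times in 2 clutches only. At 0 h it was at -2.26 in I and -4.16 in J, and at 1.5 h at -1.74 in H, -1.31 in I, -3.08 in J and -1.99 in K. Both complete clutches were higher at 1.5 h, by 0.95 in I and 1.08 in J, and the fitted change of 1.34 (SE 1.06, adjusted p = 0.260) did not pass.

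Clutches differed in how many genes were higher at 1.5 h. Of the 22 genes measured in all clutches, 19 were higher in G, 20 in H, 20 in I, 17 in J, 21 in K and 13 in L. The median change over these genes was 1.18 in G, 1.90 in H, 0.73 in I, 1.05 in J, 0.89 in K and 0.16 in L. With gapdh as reference clutch L was thus the lowest by both measures, although dhrs3.L (1.63), crabp2.L (3.09) and cyp26a1.L (1.44) were higher there too. That order depends on the reference. With no reference gene clutch J was the lowest, with 7 of 22 genes higher and a median change of -0.75. Clutch L then had 18 genes higher and a median of 0.62. With the panel mean clutch L again had the lowest median (-0.275), with 9 genes higher, as in clutch I. Clutch J then had the highest, at 0.09 with 12 genes higher. The median of the 6 hox genes measured throughout was 2.18 in G, 3.22 in H and 1.37 in I, above the median of the other 16 genes in the same clutch (0.80, 1.29 and 0.61). In J, K and L it was 0.86, 0.85 and -0.27, below that of the other genes (1.05, 0.89 and 0.16).

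**Figure D3:**
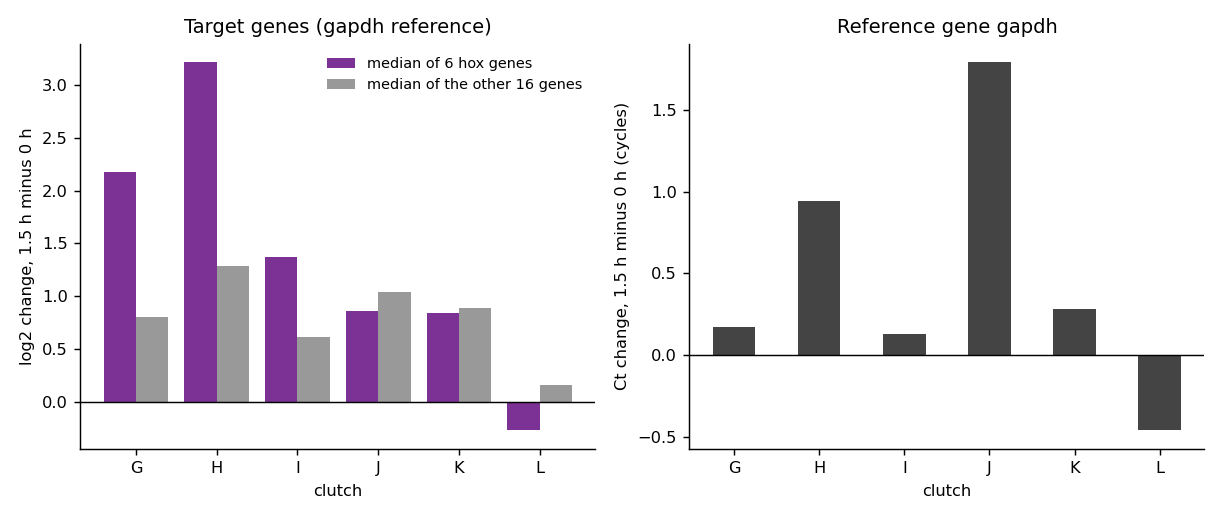
Left, median log2 change from 0 h to 1.5 h (y axis, gapdh reference) of the 6 hox genes measured throughout and of the other 16 target genes in each clutch (x axis). Right, change of the gapdh Ct in cycles, where a higher Ct is less template. The hox median is the higher of both in G, H and I, and clutch L stands out with a hox median of -0.27 and a gapdh change of -0.46. Without a reference gene the hox median is -0.93 in J and 0.19 in L. With the panel mean as reference it is -0.09 in J, -0.12 in K and -0.705 in L, which is again the lowest.

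Because every level is set against gapdh, the reference was examined in the same 12 samples. The gapdh Ct was 12.51 ± 0.62 at 0 h and 12.98 ± 0.63 at 1.5 h (SD, n = 6). It was higher at 1.5 h in 5 of 6 clutches, by 0.17 in G, 0.94 in H, 0.13 in I, 1.79 in J and 0.28 in K, and was lower by 0.46 cycles in L. The mean change of 0.475 ± 0.78 cycles did not pass the exact two-sided sign-flip test (p = 0.25, n = 6, where 0.03125 is the smallest p possible). An increase of the Ct of gapdh enters every target gene of that sample as an increase of the same size.

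The size of the changes depended on that reference. With no reference gene the change of each of the 22 complete genes shifted by -0.475, the size of the change of gapdh, and 6 genes passed, 5 higher and 1 lower. With the mean of the 22 complete target genes as the reference the shift was -1.10, and 9 genes passed, 4 higher and 5 lower. That reference sets the mean change of these 22 genes to 0, so that lower values among genes with a small change follow from its construction, and it shows only how a gene moved relative to the panel. Of all genes, 4 rose under all 3 references, among them crabp2.L (2.85, 2.37 and 1.75 with gapdh, no reference and the panel mean), crabp2.S (2.49, 2.01 and 1.39) and dhrs3.L (2.17, 1.69 and 1.07). The gene rdh13.L fell under all 3, by 1.45, 1.92 and 2.54. The level of cyp26a1.L passed without a reference gene (1.15, adjusted p = 0.0174) and not with the panel mean (0.53, adjusted p = 0.354).

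For the other genes that passed with gapdh the reference decided the call. With no reference gene aldh1a2.L changed by 0.61 (adjusted p = 0.227), aldh1a3.L by 1.08 (adjusted p = 0.154), cyp26c1.L by 0.96 (adjusted p = 0.191), rdh10.L by 0.44 (adjusted p = 0.347) and hoxb1.S by 0.85 (adjusted p = 0.281). Against the panel mean, aldh1a2.L changed by -0.01. Genes with a small change against gapdh were lower there, such as stra6.L (-0.99, adjusted p = 1.67e-04), sdr16c5.L (-0.92, adjusted p = 3.61e-04) and rdh14.L (-0.86, adjusted p = 0.00120). Which of the references follows the amount of embryo RNA was not tested.

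**Figure D4:**
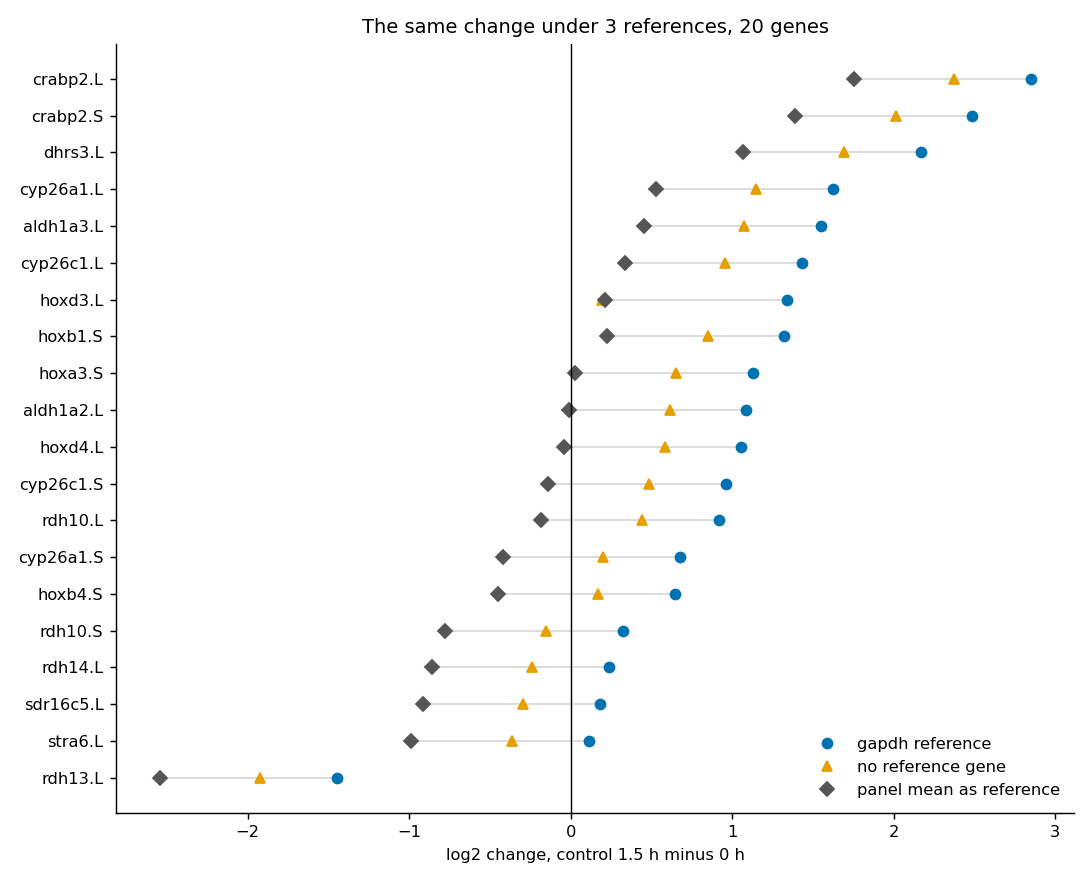
Change from 0 h to 1.5 h in control embryos (x axis, log2) of the 20 genes reported singly, with gapdh as reference (circles), with no reference gene (triangles) and with the mean of 22 target genes as reference (diamonds). All 3 marks of crabp2.L, crabp2.S and dhrs3.L lie above 1 and those of rdh13.L below -1. From aldh1a2.L downwards, 11 of the genes have a diamond below 0.

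Homoeologs were compared by subtracting the level of S from that of L in every sample, where the reference cancels. The authors preamplified L and S members in separate groups and also together, and took the median Ct. Differences that arose in that step need not cancel and were not tested. None of the 5 pairs in the panel (0%) passed limma's test after adjustment over the pairs (1 had an unadjusted p under 0.05, and none passed by the exact test). The pair nearest to it was cyp26a1, in which the L member changed by 0.95 more than the S member (SE 0.38, 95% interval 0.18 to 1.71, adjusted p = 0.0804). That difference was positive in 6 of 6 clutches, at 0.84 in G, 1.16 in H, 0.89 in I, 0.76 in J, 1.09 in K and 0.95 in L (SD 0.15), and when the fit held just the 12 control samples at both times it passed (adjusted p = 4.16e-04). By the exact sign-flip test (two-sided) p was 0.03125, which 6 clutches cannot go below. After adjustment over the 5 pairs, that p could pass only if most pairs reached it.

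The other pairs were less even. In crabp2 the difference was 0.36 (95% interval -0.84 to 1.57, adjusted p = 0.551), and it ran from -2.86 in clutch H to 1.99 in clutch J. In cyp26c1 it was 0.47 (-0.41 to 1.35, adjusted p = 0.362), with clutch G at -0.77 and the other 5 between 0.31 and 1.17. In rdh10 it was 0.59 (-0.15 to 1.33, adjusted p = 0.190), and no clutch was below 0.

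The first step was then set against the later steps of the same control clutches. With gapdh as reference, 17 of the 23 genes passed from 1.5 to 3 h (73.9%) and 8 from 3 to 4.5 h (34.8%), all of them higher. These counts were not computed with the other references. The gapdh Ct after 1.5 h was not examined on its own. The neighbouring steps share the 1.5 h samples. The difference between the first and the second step passed in 0 of 23 genes (0%) by limma, with 2 genes at an unadjusted p under 0.05. These were hoxb4.S, which changed by 0.65 in the first and 3.04 in the second step (difference -2.39, SE 0.77, adjusted p = 0.0660), and cyp26c1.S, with 0.96 and 2.59 (difference -1.63, SE 0.80, adjusted p = 0.396). Without clutch H, and with the panel mean as reference, the difference of hoxb4.S passed (-2.77, adjusted p = 0.00498, and -2.03, adjusted p = 0.0326). It did not pass with no reference gene (-2.22, adjusted p = 0.402), without clutch as a block or with any other single clutch left out.

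The first and the third step, which share clutches and no samples, differed in 5 genes (21.7%). For dhrs3.L the change was 2.17 in the first and 0.41 in the third step, a difference of 1.76 (95% interval 1.06 to 2.45, adjusted p = 9.67e-05). For crabp2.L it was 2.85 against 0.84 (difference 2.01, 0.82 to 3.20, adjusted p = 0.00756) and for aldh1a2.L 1.09 against 0.33 (difference 0.76, 0.22 to 1.30, adjusted p = 0.0285). The level of rdh13.L changed by -1.45 and then by 0.09 (difference -1.54, -2.41 to -0.66, adjusted p = 0.00655). Of these 4 only rdh13.L also passed both with no reference gene (-1.84, adjusted p = 0.0365) and with the panel mean (-1.80, adjusted p = 3.82e-04). With no reference gene dhrs3.L and crabp2.L missed the threshold (both adjusted p = 0.0656). When each clutch was left out in turn, dhrs3.L and rdh13.L passed every time, crabp2.L failed without H, and aldh1a2.L failed without H, without I and without L. Without clutch as a block in the fit, dhrs3.L and crabp2.L passed (both adjusted p = 0.0176), and rdh13.L and aldh1a2.L did not (both adjusted p = 0.195).

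For hoxd4.L the order was the opposite, without passing the test. It gave 1.06 in the first and 3.17 in the third step (difference -2.11, -3.82 to -0.40, adjusted p = 0.0636), a difference that passed with no reference gene (-2.42, adjusted p = 0.0432), with the panel mean (-2.38, adjusted p = 0.00406) and without clutch H (-2.49, adjusted p = 0.00921). The difference did not pass without clutch as a block (adjusted p = 0.100) or with any other single clutch left out. Set beside the whole change from 0 to 4.5 h, which contains it, the first step made up 51.9% for dhrs3.L (2.17 of 4.18), 49.7% for aldh1a2.L (1.09 of 2.19), 48.2% for crabp2.L (2.85 of 5.91) and 75.9% for rdh13.L (-1.45 of -1.91). It made up 12.7% for hoxb4.S (0.65 of 5.08, where the 0.65 rests largely on clutch H), 17.5% for hoxd4.L (1.06 of 6.04) and 22.1% for cyp26c1.L (1.43 of 6.49). These are shares of the log2 change and not of the change in transcript amount. The shares are descriptions with gapdh as reference and were not tested. They were not computed with the other references, which change the first step itself. With the panel mean that step was -0.01 for aldh1a2.L, 1.07 for dhrs3.L, 1.75 for crabp2.L and -2.54 for rdh13.L.

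**Figure D5:**
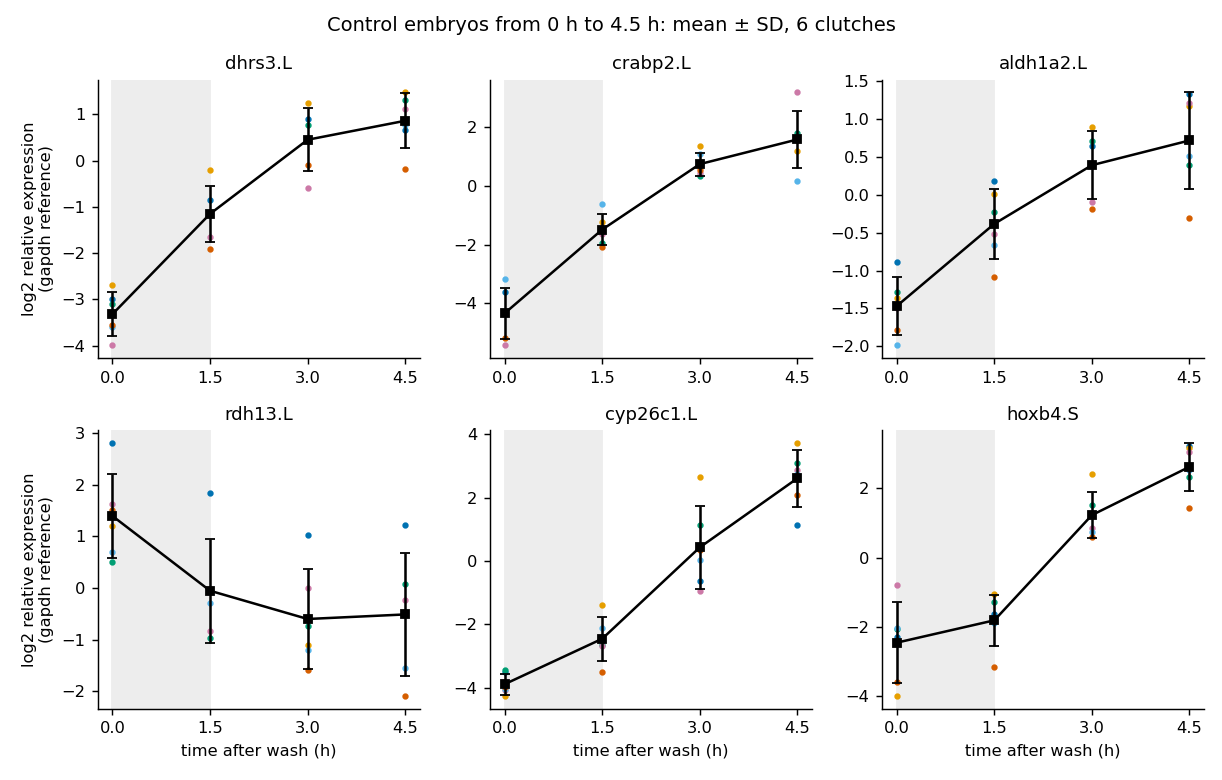
Log2 relative expression (y axis, gapdh reference) of 6 genes in control embryos from 0 to 4.5 h after the wash (x axis). Squares with bars are the mean ± SD of 6 clutches, coloured points are single clutches, and the first step is shaded. The means of dhrs3.L, crabp2.L and aldh1a2.L rise less after 3 h, that of rdh13.L falls mainly in the shaded step, and that of hoxb4.S rises mainly between 1.5 and 3 h. With the panel mean as reference aldh1a2.L (-0.01) and hoxb4.S (-0.45) have a negative change in the shaded step.

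Finally, the same interval was compared between control embryos and embryos that had been exposed to RA or DEAB for the 2 h before. In DEAB embryos the change from 0 to 1.5 h differed from that of controls in 0 of 23 genes (0%) by limma, and no gene had an unadjusted p under 0.05. For dhrs3.L it was 1.87 after DEAB and 2.17 in controls (difference -0.30, 95% interval -0.99 to 0.39). For crabp2.L it was 3.18 and 2.85 (difference 0.33, -0.86 to 1.52), and for aldh1a2.L 0.75 and 1.09 (difference -0.34, -0.87 to 0.20). Differences within these intervals remain possible, so that equal changes were not shown.

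After RA the change differed in 1 of 23 genes (4.35%), hoxd3.L, by -9.69 (adjusted p = 4.40e-06). That value rests on few samples: RA embryos had values of 2.62 to 9.45 at 0 h in clutches G, H and K and of -3.58 to -1.79 at 1.5 h in clutches I, J and L, with no clutch in common. Whether the product amplified in those RA embryos at 0 h was hoxd3.L was not tested. Without hoxd3.L no gene passed, and 3 other genes had an unadjusted p under 0.05. The changes of cyp26c1.L were 2.99 after RA and 1.43 in controls (difference 1.56, 0.21 to 2.90, adjusted p = 0.186), those of cyp26c1.S 2.52 and 0.96 (difference 1.56, 0.26 to 2.86, adjusted p = 0.186), and those of hoxb4.S 1.91 and 0.65 (difference 1.26, 0.01 to 2.52, adjusted p = 0.280). With no reference gene these differences were 1.25, 1.26 and 0.96, and none of them had an unadjusted p under 0.05 by limma. Against the panel mean cyp26c1.L (1.22), cyp26c1.S (1.22) and dhrs3.L (-0.75) had one, and hoxb4.S (0.92) did not. For rdh13.L the change was -1.34 after RA and -1.30 after DEAB, against -1.45 in controls.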

How the data were processed

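Ct values were read by the authors from preamplified cDNA run with a DNA-binding dye on microfluidic arrays, and the authors deposited a table of Ct values and a table of log2 relative expression. Each of the 1709 deposited log2 values could be recomputed within 0.001 as Ct of gapdh less Ct of the gene, centred on the median of the 72 samples. The values of gapdh itself are among them, and for these the match was fixed in advance. Unequal efficiency in preamplification can stretch differences, and any change of the only reference gene moves every target gene. The labels name no array or plate, so a batch was not tested. For hoxd3 and gapdh the methods list primers for the S members, and the names of the files were kept. All 24 gene IDs were found in the RefSeq gene table (assembly Xenopus_laevis_v10.1), which gave names and neighbours only.

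Groups and clutches came from the sample titles. The main test was limma (version 3.58.1 in R 4.3.3; lmFit and eBayes) on all 72 samples in 12 groups, a fixed block for clutch, p-values adjusted after Benjamini-Hochberg over 23 target genes (or 5 homoeolog pairs) and a threshold of 0.05. The pairing by letter comes from the labels, as a clutch is 1 fertilization. Deviations from the group means correlated between 0 h and 1.5 h by a mean of 0.32 within clutches (-0.18 to 0.68) and -0.07 between clutches. No samples were identical. Exact two-sided sign-flip tests used the 64 sign assignments of 6 clutches. Missing values of hoxd3.L were left out.

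The genes, lists and comparisons were chosen with earlier results of these data known. Values are given for up to 10 genes with the largest change among those that passed with 1 sign in at least 5 clutches, and for aldh1a2.L, cyp26a1.L, cyp26a1.S, dhrs3.L and hoxb4.S; other genes are given by their change. All fits, counts and list values include 3 genes that are not reported here singly. Alternatives were other blocks, references, sample sets, thresholds and tests, and each clutch left out. The script was tested on simulated data.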

Additional observations from a re-analysis of the deposited data

Results flagged for a closer look

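Of 59 groups of values, 4 held a sample far from the others by Dixon's test, which chance alone does in about 1 in 20 groups. Each group held 6 values, except that of hoxd3.L at 1.5 h with 4. The change of cyp26a1.S was 1.63 in clutch J, against 0.37 to 0.69 in the other 5. The 0 h level of hoxd4.L was -3.68 in clutch H, against -2.23 to -1.60. The 1.5 h level of rdh13.L was 1.85 in clutch G, against -0.97 to -0.03, and that of cyp26a1.S was -1.64 in clutch I, against -0.83 to -0.38.

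Differences between groups that passed the test were the first minus the third control step for dhrs3.L (1.76), crabp2.L (2.01), aldh1a2.L (0.76) and rdh13.L (-1.54). The first step in RA minus that in control embryos also passed for hoxd3.L (-9.69), for which no clutch of RA embryos had values at both times. Clutch J held both the largest rise of the gapdh Ct (1.79 cycles) and the outlying change of cyp26a1.S. That rise of the Ct enters the change of cyp26a1.S at its full size. Whether the change would be an outlier with no reference gene was not tested.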

How the results depend on the processing

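The count of 12 genes was 12 without the replicate block and 11 to 13 when each clutch was left out. It was 6 with no reference gene and 0 in the exact sign-flip tests, of which 11 of 22 reached the smallest p of 0.03125 before adjustment. At that p a gene can pass after adjustment only if most of the 22 genes reach it. With so few clutches the 0 says little about single genes. The change of gapdh ran from 0.212 to 0.662 cycles with a clutch left out. The first minus second step gave 1 gene with the panel mean and 0 to 1 with a clutch left out. The first minus last step gave 3 without the replicate block, 3 with no reference gene and 4 to 6 with a clutch left out. The RA minus control step gave 0 without hoxd3.L, and the homoeolog pairs gave 1 with only the 12 samples, both chosen after seeing the data. With the panel mean rdh10.L (-0.18), rdh10.S (-0.78), sdr16c5.L (-0.92), aldh1a2.L (-0.011), rdh14.L (-0.86), cyp26a1.S (-0.42), cyp26c1.S (-0.14), stra6.L (-0.99), hoxb4.S (-0.45) and hoxd4.L (-0.041) turned negative, and with no reference gene rdh10.S (-0.15), sdr16c5.L (-0.29), rdh14.L (-0.24) and stra6.L (-0.36) did. Of 259 values of single genes, these 14 included, 229 kept their direction and side of the threshold. Of the 14, 2 no longer passed and 3 newly passed. Among the rest 13 no longer passed and 3 newly passed. Causes were not tested.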
